A study of Homo sapiens with 27 samples.

Results

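A set of 3 tandem loci was examined in which a gene with a higher level per kb of exon is followed, or overlapped at its end, by a gene of the same strand with a lower level in control cells. They hold PHPT1 and MAMDC4 on chromosome 9, TRAPPC1 and KCNAB3 on chromosome 17, and TCF25, MC1R and TUBB3 on chromosome 16, which is 7 of the 20268 genes in the count table. The loci were chosen because MAMDC4, KCNAB3 and MC1R rose after CPSF1 knockdown in every cell line, and the other 4 genes are their neighbours. Differences from control cells were therefore used in the choice and are given as a description without a test. Differences between hairpins, between cell lines and between control cells of the lines were tested. The differences of the knockdown effect between lines are built from differences from control cells. For MAMDC4, KCNAB3 and MC1R they are thus not free of the choice.

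RNA was sequenced from 3 human prostate cancer cell lines, the hormone-sensitive line LNCaP and the hormone-insensitive lines LNCaP95 and 22Rv1. Each line was transduced with lentivirus for a control shRNA (CTRL sh) or for 1 of 2 shRNAs against CPSF1 (CPSF1 sh1 and CPSF1 sh2), so that control cells also carried a vector and went through puromycin selection. LNCaP and 22Rv1 cells were kept in RPMI medium and LNCaP95 cells in the same medium without phenol red, all with fetal bovine serum, and RNA was taken 72 h after seeding. The 9 groups had 3 biological replicates each, which gave 27 libraries, and each line is 1 established line rather than a set of tumours. The comparison asks how the genes on either side of a transcript end behaved when a cleavage and polyadenylation factor was reduced.

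CPSF1 is the large subunit of the cleavage and polyadenylation specificity factor, which binds near the AAUAAA signal of a nascent transcript, where the RNA is cut and a poly(A) tail is added. Cleavage also prepares RNA polymerase II for termination, and a polymerase that is not released can run on into the next gene. TRAPPC1 is a subunit of the TRAPP vesicle tethering complex, PHPT1 is a protein histidine phosphatase and TCF25 takes part in ribosome quality control. KCNAB3 encodes a beta subunit of voltage-gated potassium channels, MAMDC4 encodes a protein with MAM domains, MC1R encodes the melanocortin receptor of pigment cells and TUBB3 a beta-tubulin known from neurons. None of the downstream genes is a usual marker of prostate epithelium.

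On GRCh37, PHPT1 spans chr9:139743176-139745488 on the plus strand and MAMDC4 spans chr9:139745395-139755249. TRAPPC1 spans chr17:7833663-7835441 on the minus strand, and KCNAB3, at chr17:7825177-7833121, begins after a gap of 541 bases past its end. TCF25 spans chr16:89940014-89977792 on the plus strand, MC1R chr16:89979826-89987385 and TUBB3 chr16:89985573-90005169, with 2033 bases between TCF25 and MC1R. Of these 2033 bases, only stretches of 734 and 586 bases were free of same-strand exons when GENCODE exons were counted as well. PHPT1 and MAMDC4 shared 94 exon bases, since the first exon of MAMDC4 starts inside the last exon of PHPT1. MC1R and TUBB3 shared 1192 exon bases, which is 24.7% of the exon bases of MC1R, and they include 1098 of its 1147 coding bases (95.7%). TCF25 shared no exon base with another gene of its strand. The annotation also holds RP11-1099M24.7, a gene model that spans both genes of the chromosome 17 locus, and all of its 348 exon bases lie in exons of TRAPPC1 (96 bases) or KCNAB3 (252 bases). It received 3 counts over the 27 libraries, so that reads on those shared exons were hardly assigned to it. How reads on exons of overlapping genes were handled is not given in the sources used here. The counts are totals per gene and do not show where in a gene the reads lie, and reads between genes were not counted.

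The sequences at the transcript ends are shown because the 2 commonest cleavage signals, AATAAA and ATTAAA, are the element that CPSF recognizes. Each 30-base site is given 5′ to 3′ on the transcribed strand of GRCh37, with the signal in capitals.
PHPT1 (chr9:139745445-139745474): cctggccacagaATTAAAcgtgttgccaca
TRAPPC1 (chr17:7833670-7833699): cgagaagcacagAATAAActttttgtcact
MAMDC4 (chr9:139755208-139755237): tgttgctctgtgAATAAAcaccctggccca
MC1R (chr16:89987344-89987373): ggaaagtctggtAATAAAtgtgactcagca
TCF25, the last 30 bases (chr16:89977763-89977792): ttctcctataaatgtaaatgggtcacgctc
TRAPPC1 and PHPT1 thus end with a common signal, and TCF25 does not. The last 50 bases of TCF25 held 1 TATAAA, which is among 8 single-base variants of the signal that were searched (AGTAAA besides TATAAA, as well as CATAAA along with GATAAA, further AATATA together with AATACA, finally AATAGA next to ACTAAA). KCNAB3 and TUBB3 held neither common signal on their own strand in the last 50 bases, and KCNAB3 held 1 AATAAA there on the other strand. Of 12477 genes searched alike on their own strand, 60.9% held AATAAA and 18.2% held ATTAAA in the last 50 bases, 24.7% held neither, and on the other strand the shares were 7.78% and 6.89%. For the variants the share was 26%.

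The first 100 bases that follow each upstream gene and are free of annotated exons are shown because a transcript that ran on would enter them. For PHPT1 they begin after the first exon of MAMDC4, which reaches 69 bases past the end of PHPT1.
After PHPT1 (chr9:139745558-139745657, in the first intron of MAMDC4): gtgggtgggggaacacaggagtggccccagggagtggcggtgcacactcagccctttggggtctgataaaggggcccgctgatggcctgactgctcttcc
After TRAPPC1 (chr17:7833563-7833662, minus strand, between the genes): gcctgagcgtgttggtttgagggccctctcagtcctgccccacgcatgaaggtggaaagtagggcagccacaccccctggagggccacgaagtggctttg
After TCF25 (chr16:89977793-89977892, between the genes): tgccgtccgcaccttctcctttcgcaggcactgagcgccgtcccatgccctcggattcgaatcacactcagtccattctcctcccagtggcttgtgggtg
Neither AATAAA nor ATTAAA occurred on the transcribed strand in the first 500 bases past the end of any of the 7 genes. Among the 12477 genes, 21.3% held AATAAA and 18.7% held ATTAAA in that window on their own strand, and 34.9% and 23.0% on the other strand. TRAPPC1 held 1 AATAAA there on the other strand. A missing match says only that these letters are not in the window.

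Library totals ran from 8515624 to 15904518 counts with a median of 11058723, and all 7 genes were above 2 CPM (the count scaled to a common library total) in all 27 libraries. CPSF1 mRNA fell to 66.5% (sh1) and 60.2% (sh2) of CTRL sh in LNCaP cells, to 54.1% and 54.0% in LNCaP95 cells and to 69.2% and 72.5% in 22Rv1 cells, with no overlap between knockdown and control libraries. A library stood apart, since CPSF1 sh1 replicate 3 of 22Rv1 differed from replicates 1 and 2 of its group with a chi-square per degree of freedom of 6.98 and 4.37, whereas those 2 differed by 1.92. In the CTRL sh group of LNCaP95, replicates 1 and 2 differed by 5.03, and replicate 3 differed from them by 2.79 and 2.88. The prostate markers KLK3, KLK2, HOXB13 and FOLH1 were above 2 CPM in every library, with KLK3 going from a mean of 1113 to 359.8 CPM in LNCaP, from 2017 to 1043 CPM in LNCaP95 and from 40.1 to 53.6 CPM in 22Rv1 cells, while TYR was at 0 and MLANA at most at 0.083 CPM. In bulk RNA, fewer cells that express a gene and less RNA per cell cannot be told apart.

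KCNAB3 had the greatest log2 fold change of the 7 genes in each line, from about 3 or 4 CPM in control cells. In LNCaP cells it was at 3.88, 4.22 and 3.01 normalized CPM in the CTRL sh libraries, 19.6, 15.6 and 19.0 CPM with CPSF1 sh1 and 27.1, 21.3 and 20.9 CPM with CPSF1 sh2. In LNCaP95 cells the values were 2.74, 3.39 and 3.40 CPM with CTRL sh, 23.3, 19.6 and 23.2 CPM with sh1 and 32.8, 32.6 and 31.9 CPM with sh2. The 22Rv1 libraries gave 4.48, 3.99 and 4.39 CPM, 12.9, 17.5 and 13.6 CPM and 19.8, 22.4 and 23.6 CPM in the same order. Every knockdown library was thus above every control library of its line, and in each line the lowest sh2 library was above the highest sh1 library. The log2 fold change of both hairpins against CTRL sh was 2.48 (SE 0.18) in LNCaP, 3.10 (SE 0.22) in LNCaP95 and 2.09 (SE 0.22) in 22Rv1 cells. These control values rest on few reads, namely 41, 50 and 34 counts in LNCaP, 38, 38 and 35 counts in LNCaP95 and 55, 44 and 42 counts in 22Rv1 cells.

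TRAPPC1, the upstream gene, stayed much closer to control. It was at 77.2, 74.6 and 75.8 CPM in LNCaP cells with CTRL sh, 74.5, 70.0 and 69.5 CPM with sh1 and 65.2, 63.5 and 62.0 CPM with sh2. The highest sh1 library was only just below the lowest control library. In LNCaP95 cells it was at 77.7, 72.3 and 80.4 CPM, 65.9, 66.8 and 64.4 CPM and 58.4, 63.8 and 59.4 CPM, all knockdown libraries below the controls. In 22Rv1 cells the groups overlapped, with 72.7 to 76.0 CPM in control and 64.9 to 81.5 CPM in knockdown libraries. The log2 fold changes were -0.16 (SE 0.055), -0.28 (SE 0.057) and -0.05 (SE 0.066) in LNCaP, LNCaP95 and 22Rv1 cells.

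MAMDC4 was higher with knockdown in each line. In LNCaP cells MAMDC4 was at 29.1, 32.4 and 29.5 CPM with CTRL sh, 62.8, 47.4 and 56.7 CPM with sh1 and 81.4, 67.1 and 72.9 CPM with sh2. In LNCaP95 cells it was at 47.8, 34.4 and 40.0 CPM, 121, 100.2 and 102 CPM and 131, 121 and 110.0 CPM. The 22Rv1 libraries gave 65.7, 62.1 and 66.2 CPM, 93.2, 116 and 133 CPM and 124, 151 and 139 CPM. Knockdown and control libraries did not overlap in any line, whereas the hairpins overlapped in LNCaP95 and 22Rv1 cells. The log2 fold change was 1.11 (SE 0.14) in LNCaP, 1.48 (SE 0.11) in LNCaP95 and 0.96 (SE 0.12) in 22Rv1 cells.

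PHPT1 was lower with knockdown in each line. In LNCaP cells it was at 106, 115 and 105 CPM with CTRL sh, 91.7, 85.3 and 87.7 CPM with sh1 and 83.2, 81.1 and 81.6 CPM with sh2. In LNCaP95 cells the values were 137, 112 and 126 CPM, 92.2, 83.1 and 79.3 CPM and 82.2, 80.4 and 75.6 CPM, and in 22Rv1 cells 160.2, 161 and 164 CPM, 128, 149 and 155 CPM and 122, 132 and 123 CPM. All knockdown libraries were below all control libraries of their line. The log2 fold change was -0.34 (SE 0.047), -0.61 (SE 0.067) and -0.27 (SE 0.071) in LNCaP, LNCaP95 and 22Rv1 cells. The 94 shared exon bases are 4.93% of the exon bases of PHPT1 and 1.72% of those of MAMDC4.

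MC1R was higher with knockdown in all lines. In LNCaP cells it was at 8.33, 9.45 and 8.41 CPM with CTRL sh, 37.7, 31.7 and 29.8 CPM with sh1 and 36.0, 34.7 and 34.9 CPM with sh2. In LNCaP95 cells it was at 4.97, 4.64 and 4.37 CPM, 15.8, 12.1 and 11.7 CPM and 19.1, 17.7 and 15.1 CPM. The 22Rv1 libraries gave 18.5, 19.7 and 20.5 CPM, 32.0, 40.8 and 44.1 CPM and 35.6, 37.4 and 40.3 CPM. No knockdown library fell within the range of its controls. The log2 fold change was 1.97 (SE 0.095) in LNCaP, 1.69 (SE 0.18) in LNCaP95 and 0.97 (SE 0.096) in 22Rv1 cells. Of the melanocyte markers, PMEL went from a mean of 6.08 to 6.16 CPM in LNCaP, from 9.04 to 3.86 CPM in LNCaP95 and from 1.97 to 1.14 CPM in 22Rv1 cells, and DCT from 0.0871 to 1.43, 0.0861 to 1.09 and 1.18 to 2.46 CPM, and their part in the MC1R values was not tested.

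TCF25, upstream of MC1R, was lower with knockdown in LNCaP and 22Rv1 cells and overlapped with control in LNCaP95 cells. In LNCaP cells it was at 142, 145 and 147 CPM with CTRL sh, 117, 113 and 112 CPM with sh1 and 110.0, 110.0 and 107 CPM with sh2. In LNCaP95 cells it ranged from 56.7 to 64.0 CPM in control and from 54.7 to 61.1 CPM in knockdown libraries, and in 22Rv1 cells from 98.9 to 107 CPM and from 79.9 to 94.3 CPM. The log2 fold changes were -0.36 (SE 0.037), -0.03 (SE 0.055) and -0.26 (SE 0.055) in LNCaP, LNCaP95 and 22Rv1 cells. That of LNCaP95 cells took the other sign with library size alone as scaling (0.06) and without CTRL sh replicate 1 (0.03).

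TUBB3, which starts inside MC1R, was higher with knockdown in LNCaP and 22Rv1 cells and overlapped with control in LNCaP95 cells. In LNCaP cells it was at 16.8, 16.7 and 16.3 CPM with CTRL sh, 48.1, 41.1 and 47.2 CPM with sh1 and 44.1, 41.7 and 40.1 CPM with sh2. In LNCaP95 cells it was at 15.99, 13.3 and 12.8 CPM, 15.4, 15.3 and 14.01 CPM and 14.1, 17.1 and 14.7 CPM, with overlap. The 22Rv1 libraries gave 145, 136 and 134 CPM, 157, 172 and 191 CPM and 153, 166 and 155 CPM, with no overlap between knockdown and control. The log2 fold change was 1.404 (SE 0.076) in LNCaP, 0.10 (SE 0.097) in LNCaP95 and 0.26 (SE 0.066) in 22Rv1 cells. Of 3 neuronal markers, SNAP25 had a mean of 20.8 CPM in control and 14.9 CPM in knockdown libraries of 22Rv1 cells, and went from 0.0562 to 0.227 CPM in LNCaP and from 0.0324 to 0.0491 CPM in LNCaP95 cells. SYT1 went from 0.0892 to 0.357, 0.414 to 0.747 and 1.197 to 0.836 CPM in LNCaP, LNCaP95 and 22Rv1 cells. RBFOX3 was at 0 in all 22Rv1 libraries and went from 0.0562 to 0.0409 CPM in LNCaP and from 0.188 to 0.272 CPM in LNCaP95 cells. Their part in the TUBB3 values was not tested. The part of the 1192 shared exon bases in the counts of MC1R and TUBB3 was not tested.

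**Figure D1:**
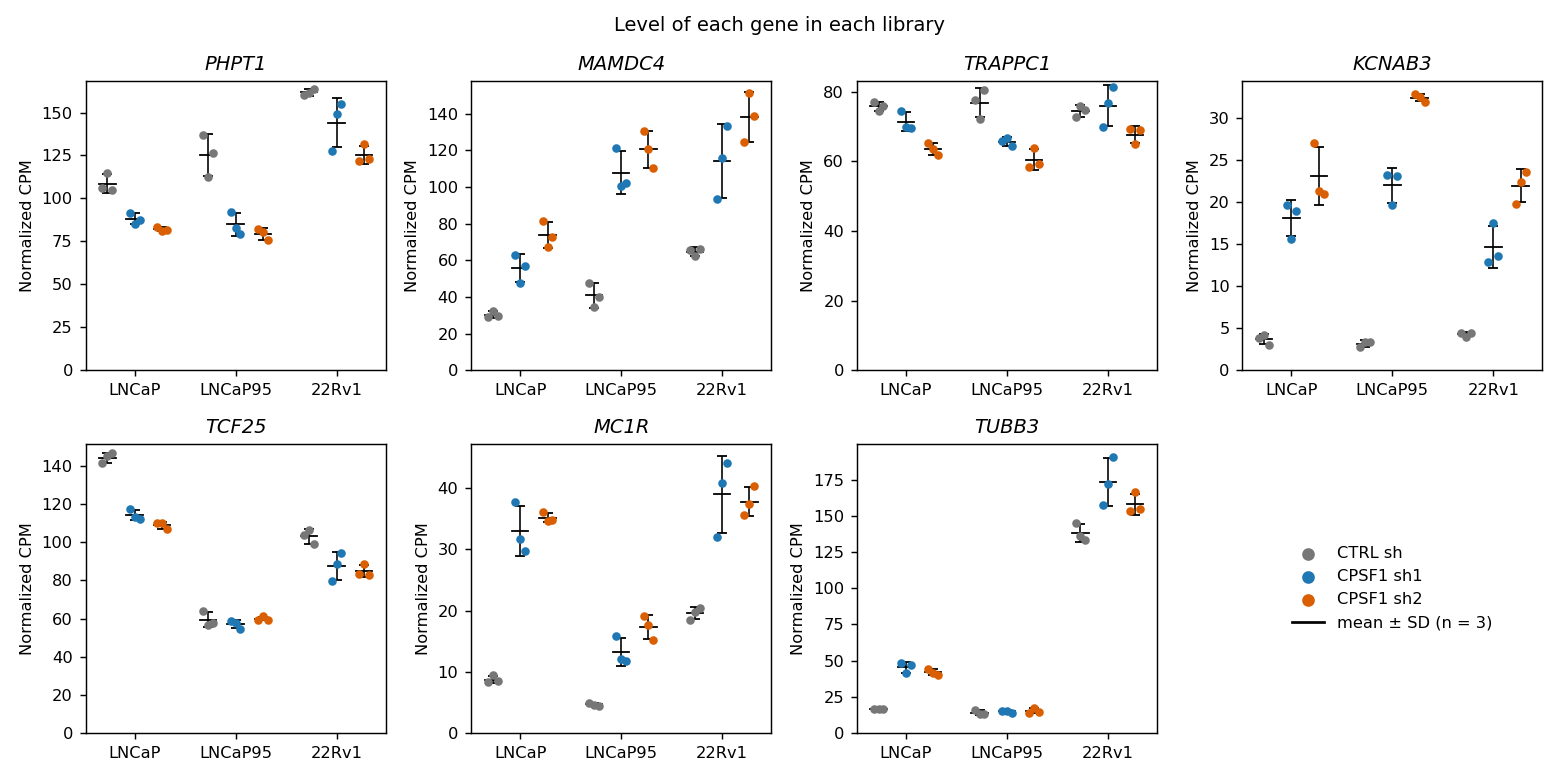
Normalized CPM of each gene in each library (points), by cell line and shRNA, with the mean and SD of 3 replicates. MAMDC4, KCNAB3 and MC1R are above control in all knockdown libraries of every line, PHPT1 is below control in all of them, and TUBB3 overlaps with control in LNCaP95 cells, where knockdown libraries lie between 14.01 and 17.1 CPM.

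All 6 knockdown libraries were above all 3 control libraries for 4 of the 7 genes in LNCaP cells, where 26.8% of 11096 genes tested did so, for 3 in LNCaP95 cells (30.1% of 11143) and for 4 in 22Rv1 cells (13.1% of 11728). The number with all 6 below was 3 for LNCaP (29.0%), 2 for LNCaP95 (29.9%) and 2 for 22Rv1 (15.0%). Since the genes were chosen on this contrast, nothing is read from these counts. By size of rise, KCNAB3 took place 10 among the 11096 genes of LNCaP, place 4 for LNCaP95 and place 5 for 22Rv1. The corresponding places were 26, 55 and 68 for MC1R and 142, 103 and 74 for MAMDC4. TUBB3 took places 84, 4509 and 1159.

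Set against the upstream gene in the same library, the downstream genes moved from a small share of its level per kb of exon to a larger one. This ratio needs no scaling between libraries, and 0.5 was added to each count. KCNAB3 was at 1.20 ± 0.21% of TRAPPC1 in LNCaP cells with CTRL sh, 6.14 ± 0.64% with sh1 and 8.79 ± 1.104% with sh2 (mean ± SD, n = 3 here and below). It went from 1.02 ± 0.14% to 8.13 ± 0.87% and 13 ± 0.63% in LNCaP95 cells, and from 1.41 ± 0.11% to 4.69 ± 0.77% and 7.86 ± 0.82% in 22Rv1 cells. Even at its highest, KCNAB3 therefore stayed at 13.6% of its neighbour or below.

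MAMDC4 reached its greatest share of PHPT1 in LNCaP95 cells. It was at 9.75 ± 0.13% of PHPT1 per kb in LNCaP cells with CTRL sh, 22.0 ± 2.33% with sh1 and 31.4 ± 2.63% with sh2. The LNCaP95 values were 11.3 ± 0.79%, 44.3 ± 1.94% and 52.9 ± 2.38%, and those of 22Rv1 cells 13.96 ± 0.46%, 27.5 ± 2.31% and 38.4 ± 2.43%. MC1R, relative to TCF25, was at 4.17 ± 0.28%, 19.8 ± 2.00% and 22.2 ± 0.47% in LNCaP cells. It was at 5.43 ± 0.22%, 15.9 ± 2.30% and 19.8 ± 2.28% in LNCaP95 cells and at 13.1 ± 1.04%, 30.4 ± 2.52% and 30.6 ± 2.36% in 22Rv1 cells. For each of these 3 ratios, all knockdown libraries were above all control libraries in every line.

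The ratio of TUBB3 to MC1R went down instead, from 131 ± 8.53% to 95.7 ± 11.9% and 82.2 ± 2.61% in LNCaP cells. In LNCaP95 cells it was 206 ± 13%, 79.1 ± 10.6% and 61.6 ± 9.13%, and in 22Rv1 cells 488 ± 47.0%, 309 ± 25.9% and 289 ± 21.7%. Per kb, TUBB3 thus went from above MC1R to below it in all sh2 and 2 of 3 sh1 libraries of LNCaP (109.3% in the other) and in all knockdown libraries of LNCaP95 cells, and stayed above it in 22Rv1 cells.

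**Figure D2:**
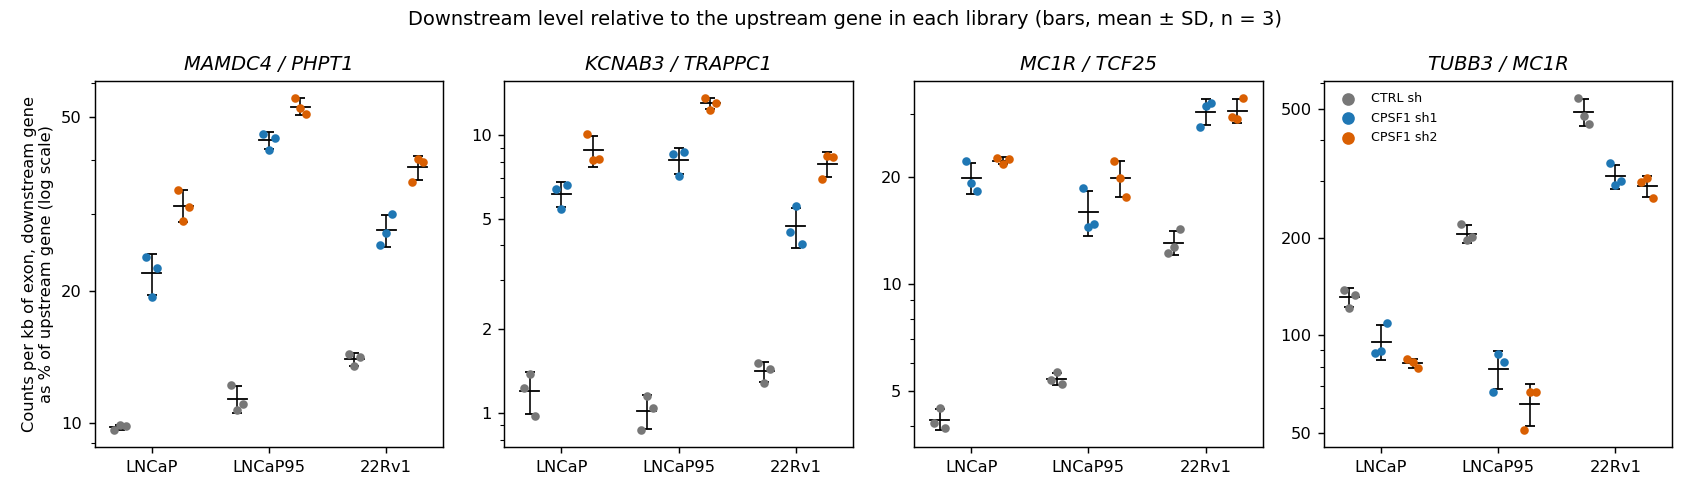
Counts per kb of exon of the downstream gene as a percent of the upstream gene in each library (points, log axis), with the mean and SD of 3 replicates. KCNAB3 goes from 1.20% to 6.14% (sh1) and 8.79% (sh2) of TRAPPC1 in LNCaP cells, and the ratio of TUBB3 to MC1R is below that of the controls in all knockdown libraries.

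The hairpins were compared directly, since the choice of genes did not use that contrast. Averaged over the lines, the log2 ratio of KCNAB3 to TRAPPC1 was 0.65 higher with sh2 than with sh1, and that of MAMDC4 to PHPT1 was 0.42 higher. In an exact two-sided permutation test of the hairpin labels within lines (8000 arrangements), both had p = 0.00025, the smallest that the arrangements can give, and an adjusted p of 0.0005 over the 4 ratios. MC1R to TCF25 was 0.17 higher with sh2 (exact p = 0.0355, adjusted p = 0.0355) and TUBB3 to MC1R 0.22 lower (exact p = 0.0045, adjusted p = 0.006). In the single lines, sh2 was above sh1 for KCNAB3 to TRAPPC1 by 0.52, 0.68 and 0.75 in LNCaP, LNCaP95 and 22Rv1 cells, and for MC1R to TCF25 by 0.17, 0.32 and 0.01. The result for MC1R to TCF25 rested on single libraries, and without 1 of 8 of them the adjusted p rose to between 0.053 and 0.0737 (exact permutation test).

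Of the single genes, KCNAB3 differed between the hairpins in each line by edgeR's quasi-likelihood test. Its level with sh2 was higher than with sh1 by 0.36 on the log2 scale in LNCaP (SE 0.11, adjusted p = 0.0390), 0.56 in LNCaP95 (SE 0.078, adjusted p = 1.83e-05) and 0.58 in 22Rv1 cells (SE 0.11, adjusted p = 0.00443). MAMDC4 was higher by 0.41 in LNCaP cells (SE 0.081, adjusted p = 0.00167) and MC1R by 0.38 in LNCaP95 cells (SE 0.11, adjusted p = 0.0132), while TRAPPC1 was lower in LNCaP cells, with a log2 difference of -0.17 (SE 0.047, adjusted p = 0.0220). Thus 3 of 7 genes differed in LNCaP cells, while LNCaP95 had 2 and 22Rv1 had 1, beside 14.8, 34.1 and 11.3% of all genes tested. MAMDC4 did not pass in LNCaP95 (0.16, adjusted p = 0.128) and 22Rv1 cells (0.27, adjusted p = 0.0791), but did so in 22Rv1 cells without CPSF1 sh1 replicate 3 (0.40, adjusted p = 0.000242). It also passed with the replicate number as a block (adjusted p = 0.0258 for LNCaP95 and 0.0375 for 22Rv1) and without a filter on low counts (0.0353 and 0.0193), and with DESeq2 for 22Rv1 (0.0483). PHPT1 was at the threshold in 22Rv1 cells (-0.20, adjusted p = 0.0503), where it passed with the replicate number as a block (adjusted p = 0.0425), library size alone (0.0473), filterByExpr (0.0472), no filter (0.0182) or the edgeR 4 method (0.0493) and without CPSF1 sh1 replicate 1 (-0.28, adjusted p = 0.0014), as did TRAPPC1 (-0.22, adjusted p = 0.0148) and TUBB3 (-0.20, adjusted p = 0.0237).

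Some of these calls depended on single libraries or on the method. DESeq2 called neither KCNAB3 (adjusted p = 0.0837) nor TRAPPC1 (0.0873) in LNCaP cells. For KCNAB3 in LNCaP cells the adjusted p was 0.199 without CPSF1 sh1 replicate 2 and 0.179 without CPSF1 sh2 replicate 1, and the difference was then 0.25 and 0.23. The call of TRAPPC1 in LNCaP cells was lost without CPSF1 sh1 replicate 1 (adjusted p = 0.0932) and without CPSF1 sh2 replicate 2 (0.0725) or 3 (0.0799). For MC1R in LNCaP95 cells the adjusted p was 0.0655 and 0.0587 without CPSF1 sh1 replicate 2 or 3 and 0.0659 without CPSF1 sh2 replicate 1. MAMDC4 in LNCaP95 cells passed without CTRL sh replicate 1 (0.16, adjusted p = 0.0467) or CPSF1 sh1 replicate 1 (0.26, adjusted p = 0.0303). CPSF1 mRNA with sh1 and sh2 was at 66.5 and 60.2% of control for LNCaP, 54.1 and 54.0% for LNCaP95, and 69.2 and 72.5% for 22Rv1, and its part in the hairpin differences was not tested.

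**Figure D3:**
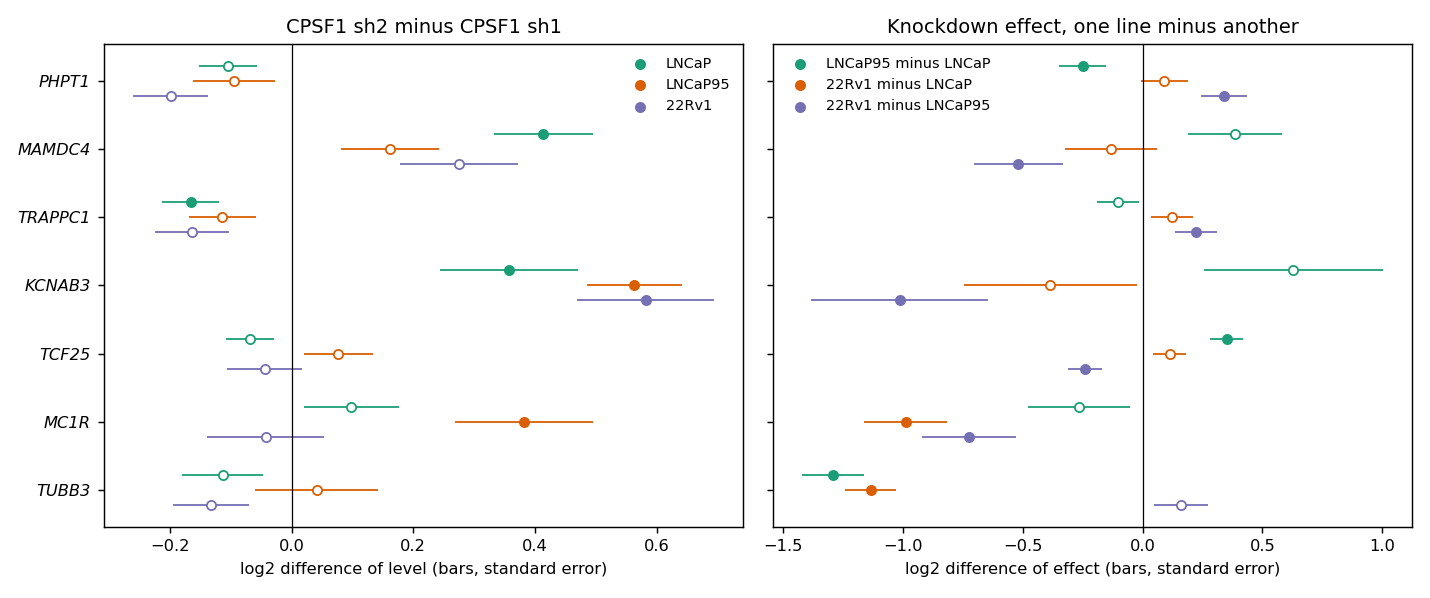
Left, log2 difference between the CPSF1 sh2 and sh1 libraries of each line, and right, log2 difference of the knockdown effect between lines, with standard errors and with filled points where the adjusted p was below 0.05. KCNAB3 lies between 0.36 and 0.58 on the left in all 3 lines, and TUBB3 lies at -1.29 and -1.13 on the right in the comparisons with LNCaP.

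The size of the knockdown effect differed between the lines for 6 of the 7 genes in the pair 22Rv1 and LNCaP95, for 3 in LNCaP95 and LNCaP and for 2 in 22Rv1 and LNCaP. The shares of the 10317 genes tested were 53.7, 50.9 and 40.4%. TUBB3 had the greatest difference, with an effect lower than in LNCaP by a log2 difference of -1.29 in LNCaP95 (SE 0.13, adjusted p = 2.21e-09) and -1.13 in 22Rv1 cells (SE 0.11, adjusted p = 2.14e-09), while LNCaP95 and 22Rv1 did not differ past the threshold (0.16, SE 0.11, adjusted p = 0.241). The effect on MC1R was smaller in 22Rv1 than in LNCaP (-0.99, SE 0.17, adjusted p = 4.88e-05) and in LNCaP95 cells (-0.72, SE 0.20, adjusted p = 0.00271). KCNAB3 and MAMDC4 rose less in 22Rv1 than in LNCaP95 cells, with differences of -1.01 (SE 0.37, adjusted p = 0.0212) and -0.52 (SE 0.19, adjusted p = 0.0194). Between 22Rv1 and LNCaP their differences were -0.38 (adjusted p = 0.418) and -0.13 (adjusted p = 0.615), and between LNCaP95 and LNCaP 0.63 (adjusted p = 0.164) and 0.39 (adjusted p = 0.103). With hairpins as separate groups, a choice made after seeing the data, both of the latter passed (0.64, adjusted p = 0.0182, and 0.41, adjusted p = 0.0262). KCNAB3 then also passed with sh2 alone (adjusted p = 0.00425), and MAMDC4 with sh1 alone (0.0172) or with library size alone as scaling (0.0490). CPSF1 was at 69.2 and 72.5% of control in 22Rv1 cells and at 54.1 and 54.0% in LNCaP95 cells, and its part in these differences was not tested.

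The upstream genes differed too. PHPT1 fell less in 22Rv1 than in LNCaP95 cells (0.34, SE 0.097, adjusted p = 0.00399) and more in LNCaP95 than in LNCaP cells (-0.25, SE 0.099, adjusted p = 0.0347). The effect on TCF25, which was near 0 in LNCaP95 cells, differed from that in LNCaP by 0.35 (SE 0.069, adjusted p = 0.000115), and that in 22Rv1 from that in LNCaP95 cells by -0.24 (SE 0.071, adjusted p = 0.00544). For TRAPPC1 the difference between 22Rv1 and LNCaP95 passed (0.22, SE 0.088, adjusted p = 0.0313), but not with a replicate block (0.0550) or with library size alone as scaling (0.15, adjusted p = 0.147). Library size alone also ended the PHPT1 call between LNCaP95 and LNCaP (-0.17, adjusted p = 0.148), and with sh1 alone TCF25 missed the threshold between 22Rv1 and LNCaP95 (-0.16, adjusted p = 0.113). The opening of each gap between downstream and upstream gene, given by the difference of their log2 fold changes, was 2.65, 3.38 and 2.14 for KCNAB3 and TRAPPC1, 1.45, 2.09 and 1.23 for MAMDC4 and PHPT1, and 2.33, 1.72 and 1.23 for MC1R and TCF25 in LNCaP, LNCaP95 and 22Rv1 cells.

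Some of these calls between lines also rested on single control libraries. Without LNCaP95 CTRL sh replicate 1 the adjusted p was 0.0707 for KCNAB3 (difference -0.90) and 0.0612 for TRAPPC1 between 22Rv1 and LNCaP95, and 0.146 for PHPT1 between LNCaP95 and LNCaP, while MAMDC4 passed between LNCaP95 and LNCaP (0.52, adjusted p = 0.0458). Without 22Rv1 CTRL sh replicate 1 that of KCNAB3 was 0.0555, and without LNCaP95 CTRL sh replicate 2 that of MAMDC4 between 22Rv1 and LNCaP95 was 0.0820. MAMDC4 also passed between LNCaP95 and LNCaP without LNCaP CPSF1 sh2 replicate 1 (adjusted p = 0.0438). PHPT1 between LNCaP95 and LNCaP was also lost without LNCaP CTRL sh replicate 1 or 3, LNCaP CPSF1 sh1 replicate 1, LNCaP95 CTRL sh replicate 3 or LNCaP95 CPSF1 sh2 replicate 3, with an adjusted p between 0.0522 and 0.0809. TRAPPC1 was lost without LNCaP95 CTRL sh replicate 3 (0.0917), LNCaP95 CPSF1 sh2 replicate 1 (0.0511), 22Rv1 CTRL sh replicate 1 (0.0759) or 3 (0.0515) and 22Rv1 CPSF1 sh1 replicate 2 (0.0527) or 3 (0.0509).

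In control cells the loci already differed between the lines, and these libraries carry no knockdown. Of the 7 genes, 5 differed between LNCaP95 and LNCaP, 5 between 22Rv1 and LNCaP and 6 between 22Rv1 and LNCaP95, beside 80.5, 82.7 and 84.5% of 10477 genes. TUBB3 was highest in 22Rv1 cells, at 138 ± 6.103 CPM (SD, n = 3) against 16.6 ± 0.26 CPM in LNCaP and 14.04 ± 1.71 CPM in LNCaP95 cells, a log2 difference of 3.07 (SE 0.067, adjusted p = 4.71e-22) and 3.31 (SE 0.069, adjusted p = 1.12e-22) by edgeR. MC1R followed the order 22Rv1 (19.6 ± 0.99 CPM), LNCaP (8.73 ± 0.62 CPM) and LNCaP95 (4.66 ± 0.30 CPM), with a log2 difference from LNCaP of 1.17 for 22Rv1 (adjusted p = 1.18e-10) and -0.91 for LNCaP95 (adjusted p = 7.58e-07). MAMDC4 was at 64.7 ± 2.28 CPM in 22Rv1, 40.8 ± 6.73 CPM in LNCaP95 and 30.3 ± 1.81 CPM in LNCaP cells, and all 3 pairs passed the test (adjusted p from 1.54e-11 to 0.000141).

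KCNAB3 differed only between 22Rv1 and LNCaP95 (0.47, SE 0.17, adjusted p = 0.0143), and not without LNCaP95 CTRL sh replicate 1 (0.37, adjusted p = 0.0869) or with DESeq2 (0.48, adjusted p = 0.0725). TRAPPC1 stayed within 0.02 on the log2 scale of equal levels in all 3 pairs (adjusted p from 0.727 to 0.976, SE 0.051). TCF25 was at 144 ± 2.65 CPM in LNCaP, 103 ± 3.94 CPM in 22Rv1 and 59.4 ± 3.96 CPM in LNCaP95 cells, with a log2 difference of -1.29 between LNCaP95 and LNCaP (SE 0.050, adjusted p = 6.51e-17). PHPT1 was at 162 ± 1.95 CPM in 22Rv1, 125 ± 12.3 CPM in LNCaP95 and 109 ± 5.43 CPM in LNCaP cells, and all 3 pairs passed (adjusted p from 9.59e-10 to 0.00324). TUBB3 was lower in LNCaP95 than in LNCaP by a log2 difference of -0.24 (adjusted p = 0.0221), which was lost without LNCaP CTRL sh replicate 2 (adjusted p = 0.0651) or LNCaP95 CTRL sh replicate 2 or 3 (0.101 and 0.0973).

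Per kb of exon the control levels of the upstream genes lay between 17.95 CPM per kb (TCF25 in LNCaP95) and 84.8 CPM per kb (PHPT1 in 22Rv1). Those of the downstream genes lay between 0.774 CPM per kb (KCNAB3 in LNCaP95) and 11.8 CPM per kb (MAMDC4 in 22Rv1), and TUBB3 reached 19.8 CPM per kb in 22Rv1 cells. Over the 9 groups, KCNAB3 was highest in LNCaP95 with sh2 (32.4 ± 0.46 CPM) and lowest in LNCaP95 with CTRL sh (3.18 ± 0.38 CPM), so that this line held both ends of its range. Next came LNCaP with sh2 (23.1 ± 3.46 CPM), LNCaP95 with sh1 (22.0 ± 2.07 CPM) and 22Rv1 with sh2 (21.9 ± 1.98 CPM), of which each overlapped with the next in this order. LNCaP with sh1 (18.1 ± 2.16 CPM) and 22Rv1 with sh1 (14.7 ± 2.52 CPM) overlapped. Of the 3 control groups, LNCaP overlapped with each of the others. The controls of 22Rv1 (3.99 to 4.48 CPM) and LNCaP95 (2.74 to 3.40 CPM) did not overlap. MAMDC4 was highest in 22Rv1 with sh2 (138 ± 13.4 CPM), LNCaP95 with sh2 (120.4 ± 10.3 CPM), 22Rv1 with sh1 (114 ± 20.2 CPM) and LNCaP95 with sh1 (108 ± 11.6 CPM), which overlapped in this order. Its level in 22Rv1 cells with CTRL sh overlapped with that in LNCaP cells with sh1 (55.6 ± 7.78 CPM). MC1R was highest in 22Rv1 and LNCaP cells with either hairpin, at 33.1 to 38.99 CPM on average with overlapping ranges, and LNCaP95 cells with sh2 (17.3 ± 2.02 CPM) reached no more than the range of 22Rv1 control cells.

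The gap that opened within each locus was set beside other tandem genes, as a description. Pairs were taken from tested genes whose nearest tested upstream neighbour on the same strand ended within 10 kb or overlapped, which gave 1869 pairs for LNCaP, 1895 for LNCaP95 and 2090 for 22Rv1. The median difference between downstream and upstream log2 fold change was -0.015, -0.037 and -0.003, with quartiles of -0.34 and 0.32, -0.41 and 0.37, and -0.17 and 0.17. KCNAB3 and TRAPPC1 took places 2, 5 and 4 from the top, MC1R and TCF25 places 6, 36 and 18, and MAMDC4 and PHPT1 places 32, 23 and 21. TUBB3 and MC1R stood towards the other end, at places 1629 of 1869, 1876 of 1895 and 2051 of 2090. KCNAB3, MC1R and MAMDC4 were chosen for rising, so that a high place says nothing beyond the choice. In the pair with TUBB3, MC1R is the upstream gene, so that the low place of this pair is not free of the choice either.

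Genes around the loci did not move as one. Of 13 other genes within 50 kb, 11 were tested, and by edgeR with Benjamini-Hochberg adjustment 3 rose and 3 fell in LNCaP, 1 rose and 4 fell in LNCaP95, and 1 rose in 22Rv1 cells, where none fell (also none at an unadjusted p below 0.05 and none by DESeq2). Over all genes 31.1% rose and 31.0% fell in LNCaP cells, and these shares were 33.2 and 33.7% for LNCaP95 and 12.7 and 14.3% for 22Rv1. C9orf172, which precedes PHPT1 on its strand, rose in all 3 lines, by 0.52 (SE 0.13, adjusted p = 0.00231), 0.88 (SE 0.18, adjusted p = 0.000747) and 1.21 (SE 0.23, adjusted p = 0.00185) on the log2 scale. CCDC183, further upstream, fell by 1.09 in LNCaP cells (adjusted p = 1.41e-05) and had 0.0004 and -0.14 in LNCaP95 and 22Rv1 cells (adjusted p = 0.997 and 0.363). RABL6, which lies between CCDC183 and C9orf172, rose by 0.11 in LNCaP cells (adjusted p = 0.0348). In LNCaP95 cells RABL6 fell by 0.14 (adjusted p = 0.0244), and in 22Rv1 cells it had 0.11 (adjusted p = 0.145). TRAF2, which follows MAMDC4 and encodes a signalling adaptor of the tumour necrosis factor receptors, rose by 0.18 in LNCaP cells (adjusted p = 0.00744) and had -0.01 and 0.02 in the other lines (adjusted p = 0.894 and 0.832).

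At the other loci the next genes downstream on the same strand did not pass the threshold in any line. DEF8, after TUBB3, had log2 fold changes of 0.07, 0.10 and 0.06 (adjusted p = 0.194, 0.228 and 0.511) in LNCaP, LNCaP95 and 22Rv1 cells. LSMD1, which lies downstream of KCNAB3 on its strand, had 0.06, -0.05 and -0.09 (adjusted p = 0.302, 0.309 and 0.350). SPIRE2, an actin nucleation factor gene before TCF25, fell by 0.34 in LNCaP cells (adjusted p = 0.00227) and had 0.12 and 0.03 in LNCaP95 and 22Rv1 cells (adjusted p = 0.348 and 0.817). CNTROB, a centriole gene on the opposite strand that overlaps the first exon of TRAPPC1 by 23 bases, fell by 0.13 in LNCaP (adjusted p = 0.0121) and by 0.24 in LNCaP95 cells (adjusted p = 0.00583) and had 0.05 in 22Rv1 cells (adjusted p = 0.471).

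Genes of the same pathways were counted in both directions. Over 7 lists of 72 genes, 35 were tested in LNCaP, of which 16 rose and 11 fell, 35 in LNCaP95 (12 and 9) and 37 in 22Rv1 cells (3 and 2). Over all genes tested the shares that rose and fell were 31.1 and 31.0%, 33.2 and 33.7%, and 12.7 and 14.3% in the same order, and nothing particular to the lists is read from their counts. Of 17 melanocortin and pigment genes, 4 were tested in LNCaP, and MITF, the master regulator of melanocytes, rose by 0.49 (adjusted p = 0.00158) and MGRN1, a ubiquitin ligase, by 0.20 (adjusted p = 0.00631). In LNCaP95 cells MITF rose by 0.32 (adjusted p = 0.0125) and PMEL, a melanosome protein, fell by 1.20 (adjusted p = 0.000115), but no gene of the list rose there without LNCaP95 CTRL sh replicate 3. The median of the list was 0.11, 0.01 and 0.07 in LNCaP, LNCaP95 and 22Rv1 cells, where that of all genes was -0.0004, 0.001 and -0.002. Of 10 potassium channel genes related to KCNAB3, 1 was tested in LNCaP and LNCaP95 and 2 in 22Rv1 cells, and KCNAB2, another beta subunit, fell by 0.16 in LNCaP (adjusted p = 0.00973) and rose by 0.45 in 22Rv1 cells (adjusted p = 0.00464).

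Of 14 other TRAPP genes, 13 were tested in LNCaP cells, where 5 rose and 4 fell, with TRAPPC2L (0.45, adjusted p = 5.52e-06) and TRAPPC4 (0.35, adjusted p = 7.24e-06) highest and TRAPPC2 (-0.30, adjusted p = 0.0218) lowest. Without LNCaP CTRL sh replicate 3 only 2 rose, without CTRL sh replicate 2 only 2 fell, and without a filter 3 rose. In LNCaP95 cells 4 rose and 3 fell of 13, and in 22Rv1 cells TRAPPC13 was the 1 of 12 that rose (0.22, adjusted p = 0.0111), and none did without 22Rv1 CTRL sh replicate 1 or 2. The medians were 0.08, -0.03 and 0.01. Of 8 beta-tubulins, 4 were tested in LNCaP, where TUBB4B rose by 0.34 (adjusted p = 1.02e-05) and TUBB by 0.10 (adjusted p = 0.0196) while TUBB4A fell by 1.08 (adjusted p = 1.83e-07) and TUBB2A by 0.71 (adjusted p = 4.60e-06), the opposite of TUBB3. Without LNCaP CTRL sh replicate 1 or 2, 1 beta-tubulin rose. In LNCaP95 cells 1 of 4 rose and 1 fell, but none rose without CTRL sh replicate 1 or 2 and none fell without CTRL sh replicate 1. None rose there with filterByExpr or without a filter, 2 rose with library size alone, and 2 fell with hairpins as separate groups, and in 22Rv1 cells TUBB2B fell by 0.84 (adjusted p = 5.98e-05). Their medians were -0.31, -0.08 and -0.07.

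All 6 ribosome quality control genes were tested, and 4 rose and 2 fell in LNCaP cells, against 2 and 2 for LNCaP95 and 1 and 1 for 22Rv1. LTN1, the ubiquitin ligase of stalled ribosomes, rose by 0.43 in LNCaP cells (adjusted p = 1.29e-05), and ANKZF1, which releases the stalled chain, fell by 0.54 in LNCaP (adjusted p = 1.86e-06) and 0.98 in LNCaP95 cells (adjusted p = 7.32e-06). In LNCaP95 cells 1 in place of 2 of these genes fell with DESeq2, with library size alone, with a replicate block or without CTRL sh replicate 2 or 3, any CPSF1 sh1 library or CPSF1 sh2 replicate 2, and 4 fell with hairpins as separate groups. In 22Rv1 cells none rose and none fell without any one of the CTRL sh replicates, and none fell with a replicate block or without CPSF1 sh2 replicate 1 or 2. The medians were 0.19, -0.12 and -0.04. Of 4 histidine phosphorylation genes, 3 were tested, and in both LNCaP and LNCaP95 cells NME1, a nucleoside diphosphate kinase, and PGAM5, a mitochondrial phosphatase, rose by 0.37 to 0.56 while LHPP, a histidine phosphatase, fell by 0.34 and 0.43 (adjusted p = 0.00128 and 0.00597). Without LNCaP95 CTRL sh replicate 1 no gene of this list fell in LNCaP95 cells. Their medians were 0.37, 0.51 and 0.11. Of 13 genes with MAM domains, 4 were tested in LNCaP and LNCaP95 and 6 in 22Rv1 cells, and PTPRM, a receptor tyrosine phosphatase, rose by 1.07 in LNCaP (adjusted p = 7.42e-11) and fell by 0.77 in LNCaP95 cells (adjusted p = 4.04e-07). NRP1, a coreceptor of semaphorins, rose by 2.04 in LNCaP95 cells (adjusted p = 3.67e-05), and the medians of this list were 0.04, 0.24 and -0.16. Without 22Rv1 CTRL sh replicate 1 or 2, 1 list gene rose and 1 fell in 22Rv1 cells, and without CPSF1 sh1 replicate 3, 5 rose and 4 fell, among them 1 beta-tubulin and 1 melanocortin gene that rose and 2 beta-tubulins and 1 TRAPP gene that fell. The number that fell was 4 without CPSF1 sh1 replicate 1, and 1 without CTRL sh replicate 3 or CPSF1 sh2 replicate 1 or 2.

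Across the 27 libraries, with the mean of each line taken off, other genes followed the same course. Among 10310 genes, those most like KCNAB3 in log2 normalized CPM were POP1 (Pearson r = 0.982), a subunit of ribonuclease P, DNHD1 (0.980) and CSTF3 (0.976), a subunit of the cleavage stimulation factor. Those most like MAMDC4 were DNHD1 (0.961), LRRC37A3 (0.956) and HYAL3 (0.951), and those most like MC1R were KCND1 (0.979), a potassium channel gene, COL4A6 (0.966) and FOXD4 (0.966). These are descriptions over libraries that share their lines and shRNAs. Other genes that rose with both hairpins may have a like course, which was not measured.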

How the data were processed

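Stranded mRNA libraries from 27 cultures were aligned by the authors with HISAT2 2.1.0 to GRCh37 and counted per gene on the reverse strand with featureCounts (Subread 2.0.3 in the submitters' processing notes). The deposited values are raw counts per gene over merged exons, which sum reads and do not place them. Groups were taken from the labels. Each line was fitted alone with edgeR 4.0.16 in R 4.3.3 (TMM scaling, quasi-likelihood test, Benjamini-Hochberg adjustment over all genes tested), on genes that exceeded 2 CPM in each library fitted. Contrasts between lines used 1 fit over all lines, and control levels 1 fit over the CTRL sh libraries. Adjusted p below 0.05 was called. In the fits of the hairpins and of control levels, the p-values measure the spread between 3 cultures of 1 line per group. The fits of CPSF1 sh against CTRL sh, within and between lines, put both hairpins into 1 group of 6 libraries per line. Their spread therefore also holds the difference between the hairpins. Ratios took count plus 0.5 per kb of exon, with an exact permutation test.

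Sequences were read from the GRCh37 genome with pysam 0.24.0, under Python 3.11.15 with numpy 2.4.6, pandas 2.3.3 and matplotlib 3.10.9. The fits and the permutation test were tested on simulated data. The members and lists were chosen with earlier results of these data known. Text names the 7 genes, their nearest same-strand neighbours, per list up to 2 genes with the largest rise and 2 with the largest fall past the threshold, and the 3 genes most like MAMDC4, KCNAB3 and MC1R. Of the genes within 50 kb, CCDC183, RABL6 and CNTROB are named besides these. Alternatives were other scalings, filters, DESeq2 1.42.0, the edgeR 4 quasi-likelihood method, hairpins apart, other windows and pseudocounts, a replicate block and leaving out each library. For effects between lines, hairpins as separate groups and single hairpins were added after seeing the data.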

Additional observations from a re-analysis of the deposited data

Results flagged for a closer look

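The knockdown effect differed between cell lines in 11 of the 21 comparisons of a gene and a pair of lines, by edgeR's quasi-likelihood test of the difference itself. Of all 10317 genes tested, 50.9, 40.4 and 53.7% differed between LNCaP95 and LNCaP, 22Rv1 and LNCaP, and 22Rv1 and LNCaP95, so the number of calls is close to that of genes at large. Between LNCaP95 and LNCaP the log2 differences were -0.25 for PHPT1, 0.35 for TCF25 and -1.29 for TUBB3. Between 22Rv1 and LNCaP they were -0.99 for MC1R and -1.13 for TUBB3. Between 22Rv1 and LNCaP95 they were 0.34 for PHPT1, -0.52 for MAMDC4, 0.22 for TRAPPC1, -1.01 for KCNAB3, -0.24 for TCF25 and -0.72 for MC1R. The size of the knockdown and the control levels also differed between the lines, and their part was not tested. None of the 21 sets of 6 knockdown libraries (a gene in a line) held a library that stood apart from the other 5 by Dixon's criterion.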

How the results depend on the processing

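No called value, pair difference or ratio changed direction under the alternatives run. Values near 0 that passed no test did in places, among them TRAPPC1 control levels in all 3 pairs of lines, the hairpin differences of TUBB3 in LNCaP95 cells and of TCF25 and MC1R in 22Rv1 cells, and the fold change of TCF25 in LNCaP95 cells. With CPSF1 sh1 alone the difference of log2 fold changes in LNCaP, LNCaP95 and 22Rv1 cells was 1.17, 1.96 and 0.99 for MAMDC4 minus PHPT1 and 2.36, 3.03 and 1.74 for KCNAB3 minus TRAPPC1, and 1.57 for MC1R minus TCF25 in LNCaP95 cells. With CPSF1 sh2 alone it was 1.68, 2.21 and 1.46 for MAMDC4 minus PHPT1 and 2.89, 3.71 and 2.49 for KCNAB3 minus TRAPPC1. In a window of 100 kb, 6 neighbours rose and 6 fell in LNCaP cells, against 3 and 8 for LNCaP95 and 2 and 1 for 22Rv1. With library size alone as scaling, 2 rose and 2 fell in LNCaP95 cells. With hairpins as separate groups, 2 neighbours rose and 6 list genes fell in 22Rv1 cells. With filterByExpr 5 list genes rose in 22Rv1 cells, and 5 without a filter. Leaving out 1 library, 1 to 5 list genes rose and 1 to 4 fell in 22Rv1 cells, and the hairpin difference of MC1R to TCF25 ranged from 0.14 to 0.20. The cause was not tested.

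Whether the replicate numbers pair the libraries was not settled. Deviations of same-numbered libraries correlated at -0.0651 to 0.286 in LNCaP, -0.277 to 0.331 in LNCaP95 and -0.136 to 0.235 in 22Rv1 cells. Libraries with different numbers were not compared in this way, so that partial pairing cannot be told from none. With a replicate block MAMDC4 passed between the hairpins in LNCaP95 and 22Rv1 cells and PHPT1 in 22Rv1 cells, TRAPPC1 was lost between 22Rv1 and LNCaP95, 1 list gene fell in 22Rv1 cells, and the exact sign-flip test of the 4 ratios gave adjusted p of 0.00781 (MAMDC4 to PHPT1), 0.00781 (KCNAB3 to TRAPPC1), 0.0273 (MC1R to TCF25) and 0.0156 (TUBB3 to MC1R). Control counts of KCNAB3, near 40 per library, limit the precision of its fold change.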
